A study of Mus musculus with 18 samples.

Results

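The bile acid genes of the liver were followed as 10 genes out of the 54838 genes in the table, chosen by their symbols: Cyp7a1, Cyp8b1, Cyp27a1, Cyp7b1, Baat, Slc10a1, Slco1b2, Slco1a1, Abcb11 and Nr0b2. All 10 were found once each, and all 10 passed the filter on low values in every comparison. RNA of C57BL/6 mice was sequenced in 6 groups of 3 samples, all from mice labelled 36 weeks old. GKO mice lacked the miR-181ab1 cluster in all tissues, so an effect of the deletion in hepatocytes cannot be told apart from one in other cells, and WT mice carried no deletion. WT tumours, GKO tumours, WT non-tumours and GKO non-tumours came from mice injected once with 25 mg/kg diethylnitrosamine (DEN, a carcinogen activated in the liver) at postnatal day 12, and WT and GKO normal livers came from mice without DEN. According to the study's methods the injected pups were male and wild type and knockout littermates shared cages. The sources used here do not give which tumour and non-tumour came from the same mouse, nor the time of day or the feeding state at sampling.

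Bile acids are made from cholesterol in hepatocytes by 2 routes. The classic route opens with Cyp7a1, its rate-limiting enzyme, and passes through Cyp8b1, which sets the share of cholic acid. The alternative route opens with Cyp27a1 in mitochondria and passes through Cyp7b1. Baat then joins the bile acids to taurine or glycine, Slc10a1 (NTCP) and the Slco1 carriers take them up from blood, and Abcb11 (BSEP) pumps them into the canaliculus. Nr0b2 (SHP) is the repressor that the bile acid receptor Nr1h4 (FXR) induces and that lowers Cyp7a1 and Cyp8b1.

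The deleted cluster encodes the following miRNAs, given here because the contrast between the genotypes is their loss (RefSeq, GRCm38.p6, plus strand). Capitals mark the seed, bases 2 to 8.
mmu-miR-181a-5p (Mir181a-1, chr1:137966468-137966490): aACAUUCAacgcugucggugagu
mmu-miR-181b-5p (Mir181b-1, chr1:137966650-137966673): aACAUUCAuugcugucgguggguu
Both share 1 seed. Mir181a-1 was listed at 0 in 17 of 18 libraries and Mir181b-1 in 18 of 18, so the deletion could not be checked in these RNA values.

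The 7-base match to this seed, TGAATGT, was searched on the sense strand in the longest annotated 3′ UTR of each of the 10 genes (GENCODE release M21, mm10). Cyp7a1 held 2 matches in 2600 bases and Cyp7b1 held 1 match in 507 bases, and the other 8 genes held 0. Of 20988 genes with a 3′ UTR, 16.3% held at least 1 match, and the median length was 953 bases. The 3 sites are given with the match in capitals, in the direction of the transcript. The second Cyp7a1 match is followed by A, which makes it an 8-base match.
Cyp7a1 site 1 (chr4:6266870-6266899, minus strand): aaattaacataTGAATGTtcgtgttttaaa
Cyp7a1 site 2 (chr4:6266316-6266345, minus strand): actccctgaacTGAATGTAtccacatacct
Cyp7b1 site (chr3:18072175-18072204, minus strand): atcatttgtagTGAATGTgcttttctgtaa
A match is a description of the sequence, and binding was not measured here.

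The promoters of 7 of the 10 genes were listed by RefSeq (GRCm38.p6), as 250 bases before to 50 bases after the start. Cyp7a1, Cyp7b1 and Baat were among those without an entry. Of the motifs known for nuclear receptors of this pathway, CAAAGTCCA (of the HNF4A type) and TCAAGG (the core bound by NR5A2) were searched on both strands, and they share no overlap. CAAAGTCCA was in 1 of the 7 genes, Cyp8b1, and in 0.475% of all 32851 promoters. TCAAGG was in 1 of the 7, Nr0b2, where it occurred at 2 places, and in 14.4% of all promoters. Capitals mark the motif.
Cyp8b1 (chr9:121916354-121916382, minus strand): agcctctgagCAAAGTCCAagggcaggaa
Nr0b2 first copy (chr4:133553296-133553325, plus strand): tgacttctggagTCAAGGttgtttggccag
Nr0b2 second copy (chr4:133553329-133553358, plus strand): ccttcccgcccaTCAAGGatataaatagca
These windows hold every match found in the 7 promoters, and binding was not measured here.

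The deposited unit was TPM, in which reads are scaled by gene length and to a common total per library, so levels of different genes can be compared on this scale. TPM multiplied by exonic length gave back between 11925033 and 20751390 reads on genes per sample. The 10 hepatocyte markers summed to between 73200 and 111000 TPM in the 12 normal livers and non-tumours, to between 217000 and 239000 TPM in WT tumours and to between 226000 and 242000 TPM in GKO tumours, and 0 of the 10 were at 0 in a group. WT non-tumour 2 correlated with the other WT non-tumours at an r of 0.929 and 0.933 over log2(TPM + 1), and those with each other at 0.969. WT tumours 1 and 2 correlated at 0.982, closer than either to WT tumour 3 (0.919 and 0.921). Values without one of these libraries, or the range over all alternatives, are given where a call or a difference turned on it. Samples of a group are separate in the labels. The study's supplement describes separate mice for mRNA levels in tumours and non-tumours, without naming the assay, and the sources used here do not say it for normal livers. The p-values measure the spread between these samples.

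In normal livers without DEN, 9 of the 10 genes lay between 36.2 and 397.8 TPM over the 6 samples, and Cyp7a1 lay below this range, between 2.67 and 10.97 TPM. By their mean TPM in WT normal livers the 9 genes ranked from 401 (Cyp8b1) to 1192 (Slco1a1) of all genes, and Cyp7a1 ranked 6041. No gene was more than 2-fold from the mean of the 6 normal livers in any of them, on the log2(TPM + 1) scale. The span of each gene was wider over all 18 samples, tumours included: the highest value was 4.76 times the lowest for Baat and 5.97 times for Abcb11, but 103 times for Cyp7b1, 153 times for Cyp8b1 and 234 times for Slco1a1.

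**Figure D1:**
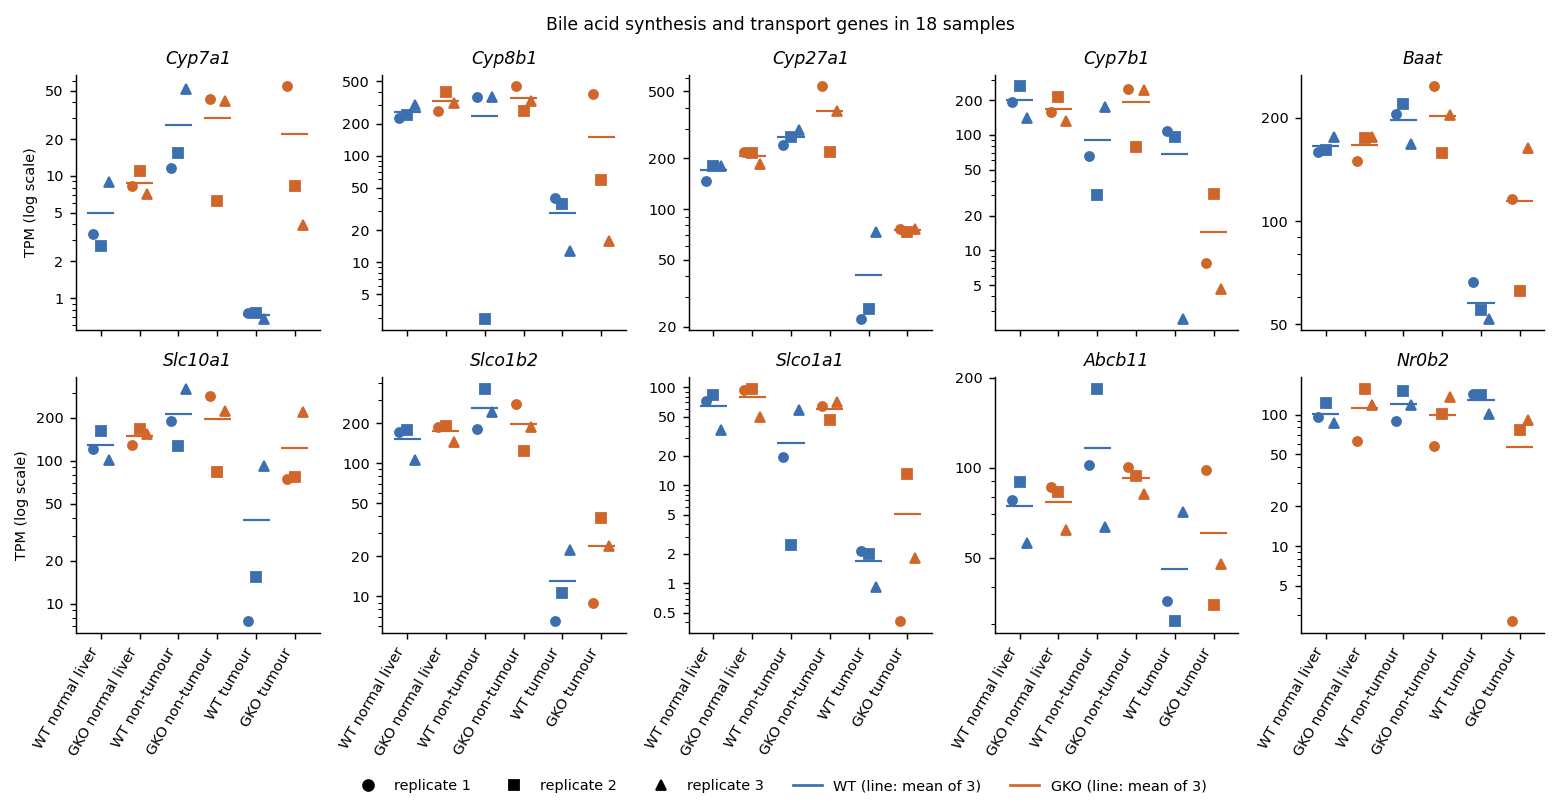
TPM (log axis) of the 10 genes in each of the 18 samples, by group; colours give the genotype, symbols the replicate number and lines the mean of 3 samples. All 3 WT tumours sit under 1 TPM for Cyp7a1, WT non-tumour 2 sits at 2.95 TPM for Cyp8b1 against 356 and 357 TPM in its group, and GKO tumour 1 sits at 2.68 TPM for Nr0b2.

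Tumours were compared with the non-tumours of the same genotype to ask which of the genes were at another level in tumours. In WT mice 4 of the 10 genes fell in tumours (limma, adjusted p under 0.05) and 0 rose, and 2.07% of all 14003 genes tested fell and 2.16% rose. In GKO mice 4 of the 10 fell and 0 rose, and 3.97% of 14092 genes fell and 7.75% rose. Cyp27a1 and Slco1b2 fell in both genotypes, Cyp7a1 and Baat were called in WT mice, and Cyp7b1 and Slco1a1 were called in GKO mice. These last 4 differences are not shown to depend on the genotype, since the difference between the genotypes, tested below, passed for 0 of the 10 genes. The median log2 fold change of the 10 genes was -2.19 in WT tumours, beside -0.02 for all genes, and -1.95 in GKO tumours, beside 0.20 for all genes. The groups did not overlap, with all 3 tumours lower, for 6 of the 10 genes in WT mice (13.9% of all genes) and for 4 of the 10 in GKO mice (12.7% of all genes). With 3 samples against 3, an exact permutation test cannot go below a p of 0.1.

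Cyp7a1 (ENSMUSG00000028240, chr4:6265612-6275633 on mm10, minus strand) was at 0.754, 0.758 and 0.679 TPM in WT tumours 1 to 3, which corresponds to 26, 26 and 25 reads. In WT non-tumours it was at 11.6, 15.3 and 51.6 TPM, and in WT normal livers at 3.32, 2.67 and 8.88 TPM. All 3 WT tumours were below every other one of the 18 samples. Cyp7a1 fell by 3.68 on the log2 scale (SE 0.51, adjusted p = 0.0134, limma), and the means of 0.730 ± 0.045 TPM in WT tumours and 26.2 ± 22.1 TPM in WT non-tumours (SD, n = 3) differed 35.9-fold. Without WT non-tumour 3, the highest of its group, it fell by 3.05 and passed the test (adjusted p = 0.00976, limma), and without WT tumour 1 or 2 it did not pass (adjusted p = 0.0616 and 0.0643, limma). Among GKO samples the gene spread widely: it was at 54.3, 8.29 and 3.94 TPM in tumours, 42.5, 6.27 and 41.0 TPM in non-tumours and 8.27, 10.97 and 7.12 TPM in normal livers. GKO tumours and GKO non-tumours overlapped, with a log2 fold change of -0.80 (95% interval -3.14 to 1.55; -1.81 without GKO tumour 1 and -0.0633 without GKO tumour 3). GKO tumour 1 had the highest Cyp7a1 of all 18 samples.

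Cyp8b1 (ENSMUSG00000050445, chr9:121914356-121916305, minus strand) was at 40.1, 35.1 and 12.7 TPM in WT tumours. In WT non-tumours it was at 357, 2.95 and 356 TPM, and in WT normal livers at 225, 243 and 299.8 TPM. WT non-tumour 2 was thus the lowest of all 18 samples, with 47 reads, while its 2 group mates were among the high samples. With it, the log2 fold change of WT tumours was -1.55 (95% interval -5.59 to 2.49, adjusted p = 0.674, limma); without it, it was -3.71 and passed the test (adjusted p = 0.0201, limma). Over all alternatives the adjusted p ran from 0.0201 to 0.947. In GKO mice the tumours were at 377, 59.3 and 15.8 TPM, the non-tumours at 451, 262 and 326 TPM and the normal livers at 264, 397.8 and 312 TPM. GKO tumour 1 lay inside the range of the non-tumours, and the other two lay below it. The log2 fold change in GKO mice was -2.22 (SE 0.99, adjusted p = 0.170, limma), and without GKO tumour 1 it was -3.41 and passed the test (adjusted p = 0.0207, limma; 0.0207 to 0.368 over all alternatives).

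Cyp27a1 (ENSMUSG00000026170, chr1:74713574-74737892, plus strand), which opens the alternative route, was at 22.4, 25.7 and 73.1 TPM in WT tumours. It was at 239, 268 and 296 TPM in WT non-tumours and at 147, 181.1 and 180.3 TPM in WT normal livers. In GKO tumours it was at 76.6, 73.4 and 76.1 TPM, the tightest group of the 6, beside 535, 218 and 384 TPM in GKO non-tumours and 217, 216 and 186 TPM in GKO normal livers. All 6 tumours were below all 12 other samples. Cyp27a1 fell by 2.90 on the log2 scale in WT tumours (SE 0.45, adjusted p = 0.0195) and fell by 2.22 in GKO tumours (SE 0.34, adjusted p = 0.0117, limma), 6.62-fold and 5.03-fold by the means. The call in WT tumours was lost without WT tumour 2. Over all alternatives the adjusted p ran from 7.72e-05 to 0.0911 in WT mice and from 0.00111 to 0.0575 in GKO mice (limma).

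Cyp7b1 (ENSMUSG00000039519, chr3:18071950-18243338, minus strand), which follows Cyp27a1, divided the WT tumours: tumours 1 and 2 were at 107.5 and 96.6 TPM and tumour 3 at 2.56 TPM, or 49 reads. WT non-tumours were at 65.8, 30.4 and 173 TPM and WT normal livers at 192, 264 and 139.7 TPM. WT tumours 1 and 2 lay within the range of the non-tumours, and the log2 fold change was -1.09 with all samples (adjusted p = 0.715, limma), 0.53 without WT tumour 3 and -1.68 without WT non-tumour 2. In GKO mice the gene was at 7.75, 30.6 and 4.61 TPM in tumours, 251, 79.0 and 243 TPM in non-tumours and 159, 213 and 132 TPM in normal livers. Cyp7b1 fell by 3.88 on the log2 scale in GKO tumours (SE 0.70, adjusted p = 0.0182, limma), a 13.4-fold difference of the means of 14.3 ± 14.2 and 191 ± 97.1 TPM (SD, n = 3). Without GKO tumour 2, the highest of its group, it fell by 4.6 (adjusted p = 0.00719, limma), and without GKO tumour 3 or GKO non-tumour 3 it did not pass (adjusted p = 0.0619 and 0.0759, limma).

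Baat (ENSMUSG00000039653, chr4:49489422-49506557, minus strand), the conjugating enzyme, was the steadiest of the 10 genes. It was at 66.5, 55.0 and 52.0 TPM in WT tumours, 205, 220.2 and 168 TPM in WT non-tumours and 159, 162 and 176 TPM in WT normal livers. Baat fell by 1.75 on the log2 scale in WT tumours (SE 0.23, adjusted p = 0.0104, limma). This call was lost in more than 1 alternative, among them without WT tumour 2 and with WT tumours 1 and 2 averaged as 1 sample (chosen after seeing the data). Over all alternatives the adjusted p ran from 0.00063 to 0.0676 (limma). In GKO tumours Baat was at 116, 62.4 and 164 TPM, in GKO non-tumours at 248, 158 and 204 TPM and in GKO normal livers at 150.1, 175 and 176 TPM. Only GKO tumour 2 came down to the level of the WT tumours, and GKO tumour 3 lay above 1 of the non-tumours. The log2 fold change in GKO mice was -0.91 (95% interval -1.80 to -0.02, adjusted p = 0.152, limma).

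The uptake carrier Slc10a1 (ENSMUSG00000021135, chr12:80953183-80968705, minus strand) was at 7.54, 15.4 and 92.4 TPM in WT tumours, 189, 127 and 319 TPM in WT non-tumours and 122, 162 and 102 TPM in WT normal livers. All 3 WT tumours were below all WT non-tumours, and WT tumour 3, the highest of them, was just below the lowest of the normal livers. The log2 fold change of -3.07 (SE 0.86) did not pass the test with all samples (adjusted p = 0.113, limma), and it was -4.07 and passed without WT tumour 3 (adjusted p = 0.00711, limma; 0.00711 to 0.32 over all alternatives). In GKO mice the tumours were at 74.0, 77.6 and 219.8 TPM and overlapped with the non-tumours at 284, 83.9 and 225 TPM and with the normal livers at 128, 167 and 154 TPM. The log2 fold change in GKO mice was -0.69 (95% interval -2.03 to 0.66).

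Slco1b2 (ENSMUSG00000030236, chr6:141629518-141686646, plus strand), the liver organic anion carrier OATP1B2, had the largest difference of the 10 genes between WT tumours and non-tumours on the log2(TPM + 1) scale, while by the ratio of the means that of Cyp7a1 was larger. It was at 6.504, 10.6 and 22.3 TPM in WT tumours, 182, 363 and 244 TPM in WT non-tumours and 171, 177 and 106 TPM in WT normal livers. In GKO mice it was at 8.96, 38.6 and 24.1 TPM in tumours, 279, 124 and 189 TPM in non-tumours and 188, 191 and 144 TPM in normal livers. As with Cyp27a1, all 6 tumours were below all 12 other samples. Slco1b2 fell by 4.33 on the log2 scale in WT tumours (SE 0.46, adjusted p = 0.00518) and fell by 3.13 in GKO tumours (SE 0.53, adjusted p = 0.0150, limma), which is 20.1-fold and 8.27-fold by the means. The call in WT tumours was kept in every alternative, and that in GKO tumours was lost without GKO non-tumour 3. In GKO mice the adjusted p ran from 0.000754 to 0.0635 over all alternatives (limma).

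Slco1a1 (ENSMUSG00000041698, chr6:141907282-141946962, minus strand), a carrier of the same family and on the same chromosome, spread most. It was at 2.13, 2.01 and 0.923 TPM in WT tumours, 19.3, 2.46 and 58.8 TPM in WT non-tumours and 71.8, 83.6 and 36.2 TPM in WT normal livers. WT non-tumour 2 was near the tumours, and the log2 fold change was -2.62 with it (adjusted p = 0.194, limma) and -3.73 without it (adjusted p = 0.0194, limma; 0.0194 to 0.403 over all alternatives). In GKO mice the gene was at 0.410, 13.1 and 1.82 TPM in tumours, 65.0, 46.4 and 70.6 TPM in non-tumours and 93.8, 96.2 and 49.4 TPM in normal livers. Slco1a1 fell by 3.99 on the log2 scale in GKO tumours (SE 0.75, adjusted p = 0.0202, limma). It fell by 4.93 without GKO tumour 2 (adjusted p = 0.00243) and by 3.27 without GKO tumour 1 (adjusted p = 0.0330, limma), passing in both. The call was lost in other alternatives, among them without GKO non-tumour 3 and without the filter on low values. Over all alternatives the adjusted p ran from 0.00243 to 0.0813 (limma). The Slco1 genes are close paralogs, and reads shared between them could have been counted in part or not at all.

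Abcb11 (ENSMUSG00000027048, chr2:69238282-69342616, minus strand), the export pump, was at 36.0, 30.7 and 71.1 TPM in WT tumours, 102, 183 and 63.5 TPM in WT non-tumours and 78.1, 89.4 and 56.2 TPM in WT normal livers. In GKO mice it was at 98.6, 34.9 and 47.7 TPM in tumours, 100.5, 93.9 and 81.8 TPM in non-tumours and 86.3, 82.8 and 61.8 TPM in normal livers. Tumours and non-tumours overlapped in both genotypes. The log2 fold changes were -1.29 (95% interval -2.41 to -0.16, adjusted p = 0.203) in WT mice and -0.73 (95% interval -1.62 to 0.15, adjusted p = 0.223, limma) in GKO mice.

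Nr0b2 (ENSMUSG00000037583, chr4:133553376-133556536, plus strand), the repressor, did not follow the others. It was at 144, 141 and 100.7 TPM in WT tumours, 89.1, 150.4 and 119 TPM in WT non-tumours and 95.9, 123 and 86.0 TPM in WT normal livers. These 9 samples overlapped throughout, and the log2 fold change of WT tumours was 0.12 (95% interval -0.55 to 0.79). In GKO mice the tumours were at 2.68, 75.9 and 90.7 TPM, the non-tumours at 58.1, 101.8 and 137 TPM and the normal livers at 62.6, 157 and 118 TPM. GKO tumour 1, with 28 reads, was the lowest of all 18 samples, and GKO tumours 2 and 3 lay within the range of the non-tumours. This tumour, lowest in Nr0b2, was also the tumour with the highest Cyp7a1, Cyp8b1 and Abcb11. It was the lowest of all 18 samples for Slco1a1, at 0.410 TPM. High Cyp7a1 was also seen beside other levels of Nr0b2. Cyp7a1 and Nr0b2 were at 51.6 and 119 TPM in WT non-tumour 3, 41.0 and 137 TPM in GKO non-tumour 3 and 42.5 and 58.1 TPM in GKO non-tumour 1. A link between these levels was not tested. The log2 fold change of Nr0b2 in GKO mice was -1.67 (95% interval -4.35 to 1.01, adjusted p = 0.343, limma), and it was -0.17 without GKO tumour 1 (adjusted p = 0.803, limma).

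**Figure D2:**
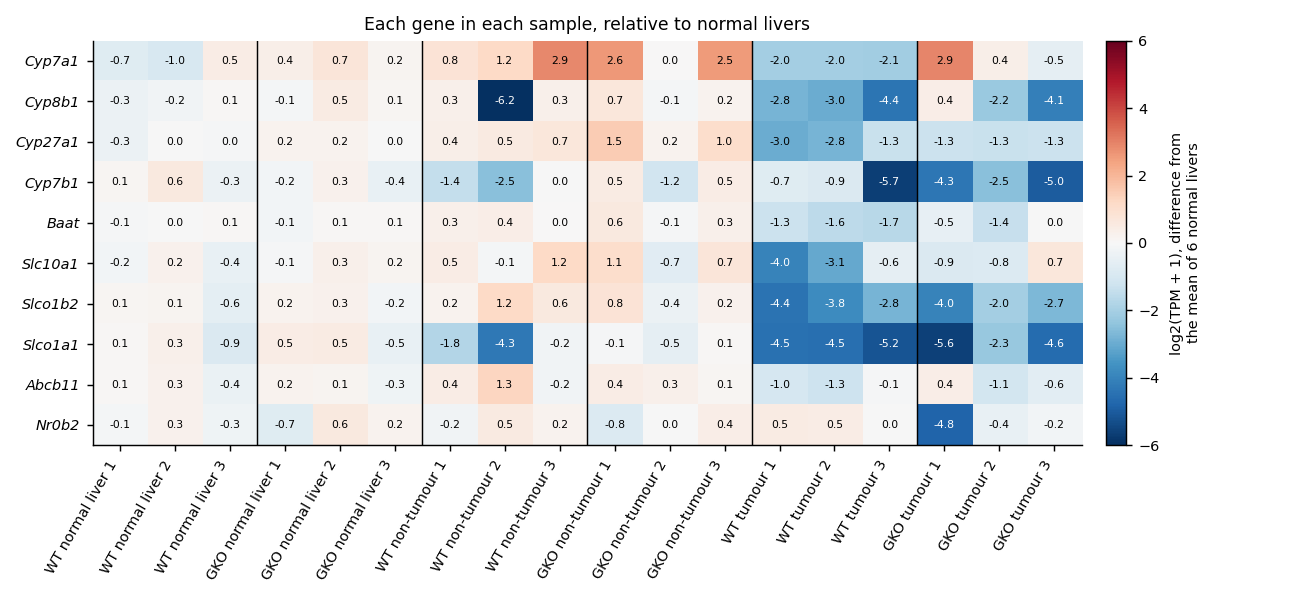
Each gene (rows) in each sample (columns) as the difference of log2(TPM + 1) from the mean of the 6 normal livers; blue is lower and red higher. Every tumour had 5 to 8 of the 10 genes more than 2-fold lower, WT non-tumour 2 had 3 lower and 3 higher, and GKO tumour 1 had Nr0b2 at -4.82 and Cyp7a1 at 2.94.

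Counted sample by sample against the mean of the 6 normal livers, on the log2(TPM + 1) scale, WT tumours 1, 2 and 3 had 8, 8 and 7 of the 10 genes more than 2-fold lower and 0 more than 2-fold higher. GKO tumours 1, 2 and 3 had 5, 7 and 5 genes lower and 1, 0 and 0 higher. The one gene higher was Cyp7a1 in GKO tumour 1. WT non-tumours 1, 2 and 3 had 2, 3 and 0 genes lower and 0, 3 and 2 higher, and GKO non-tumours had 0, 1 and 0 lower and 3, 0 and 2 higher. In WT non-tumour 2 the lower genes were Cyp8b1, Cyp7b1 and Slco1a1, and the higher genes were Cyp7a1, Slco1b2 and Abcb11. The 10 genes thus divided within this 1 sample, in contrast with the tumours, where they mostly lay on the lower side.

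The calls in the comparisons of tumours with non-tumours moved with single samples. In WT mice the number of the 10 genes called ranged from 1 (without WT tumour 2) to 6 (without WT non-tumour 2), and it was also 2 without WT tumour 1 or without WT non-tumour 1. It was 1, Slco1b2, when WT tumours 1 and 2 were averaged as 1 sample, an alternative chosen after seeing the data. In GKO mice it was 0 without GKO non-tumour 3, where the adjusted p of the 4 genes lay between 0.0575 and 0.0813 (limma), and 1 without GKO tumour 3. Of all these calls, that of Slco1b2 in WT tumours was kept in every alternative, with an adjusted p of 0.0324 or less (limma). In bulk samples, fewer cells of a type and less RNA per cell cannot be told apart.

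**Figure D3:**
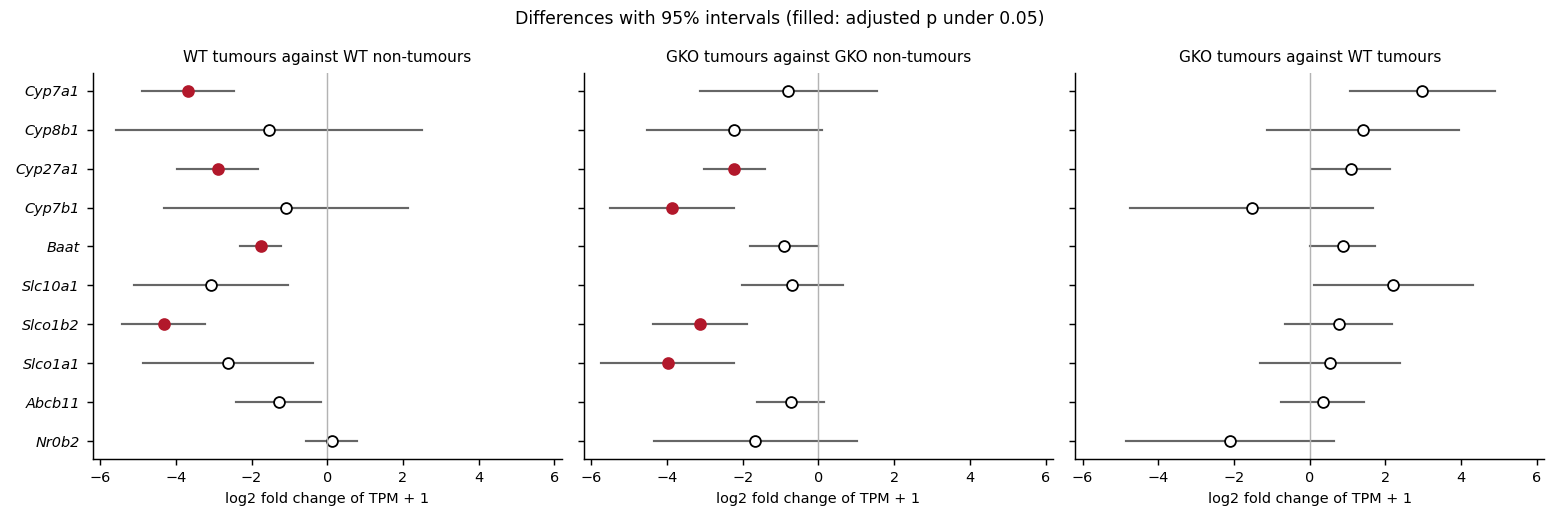
Log2 fold change of TPM + 1 (points) with its 95% interval (lines) for the 10 genes in the comparisons of tumours with non-tumours and of GKO with WT tumours; filled points passed an adjusted p under 0.05. In WT and in GKO mice 4 points are filled, all below 0, and 0 are filled between the tumours of the genotypes.

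GKO tumours were compared with WT tumours to ask whether the deletion went with another level of these genes. Of the 10 genes 0 were called (limma), where 0.0215% of 13964 genes were called. At an unadjusted p under 0.05 there were 4, Cyp7a1, Cyp27a1, Baat and Slc10a1, all higher in GKO tumours, where 8.87% of all genes were at or below that level. The largest difference was that of Cyp7a1, at 0.730 ± 0.045 TPM in WT tumours and 22.2 ± 27.9 TPM in GKO tumours (SD, n = 3), or 2.98 on the log2 scale (95% interval 1.07 to 4.89, adjusted p = 0.414, limma). Without GKO tumour 1, the highest at 54.3 TPM, it was 1.97, and without GKO tumour 3 it was 3.71. All 3 GKO tumours were above all 3 WT tumours for Cyp7a1 and Cyp27a1 and below them for Nr0b2, and for the other 7 genes the groups overlapped (14.7% of all genes did not overlap in one or the other direction). Slc10a1 had a log2 fold change of 2.21 (95% interval 0.12 to 4.31, adjusted p = 0.544), Cyp27a1 of 1.09 (95% interval 0.06 to 2.12, adjusted p = 0.544) and Baat of 0.87 (95% interval 0.01 to 1.73, adjusted p = 0.559, limma). Cyp7b1 and Nr0b2 were on the other side, at -1.54 (95% interval -4.75 to 1.68) and -2.11 (95% interval -4.85 to 0.63). Without GKO tumour 1 the value of Nr0b2 was -0.61. That of Cyp7b1 was -3.15 without WT tumour 3, -2.26 without GKO tumour 2, and -0.69 and -0.76 when WT tumours 1 and 2 were left out in turn. Leaving out WT tumour 1 put Slc10a1 at 1.48, and leaving out WT tumour 3 put it at 3.21. Without WT tumour 3, Cyp27a1 passed the test at 1.61 on the log2 scale (adjusted p = 0.0275, limma), and over all alternatives its adjusted p ran from 0.0275 to 0.987. The 2 genes with a seed match thus lay on opposite sides, Cyp7a1 higher and Cyp7b1 lower in GKO tumours, and neither was called.

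Whether the genotypes differed more in tumours than in non-tumours was tested as an interaction, which was called for 0 of the 10 genes (limma), where 0.0142% of 14106 genes were called, and 1, Cyp7a1, was at an unadjusted p under 0.05, as were 10.5% of all genes. Its value was 2.88 on the log2 scale (95% interval 0.10 to 5.67, adjusted p = 0.475, limma). The value of Slc10a1 was 2.38 (95% interval -0.11 to 4.88) and that of Cyp7b1 was -2.79 (95% interval -6.50 to 0.93). With 1 sample left out these ran from 1.87 (without GKO tumour 1) to 3.61 (without GKO tumour 3) for Cyp7a1, from 1.65 to 3.38 for Slc10a1 and from -4.40 to -1.94 for Cyp7b1 (the lower and higher values came from leaving out WT tumours 1 and 3 for Slc10a1, and 3 and 1 for Cyp7b1). These intervals are wide, so for these genes the interaction test with 3 samples a group could miss differences of several-fold. Over the 10 genes its SE ran from 0.46 for Baat to 2.19 for Cyp8b1.

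Outside tumours no difference between the genotypes passed the test. Between GKO and WT non-tumours 0 of the 10 genes were called (limma), as were 0% of 13768 genes, and 0 were at an unadjusted p under 0.05 (5.8% of genes). The log2 fold changes ran from -0.43 for Slco1b2 to 2.09 for Cyp8b1, and the latter rested on WT non-tumour 2, since it was -0.08 without it. Slco1a1 moved the same way, from 1.91 with this sample to 0.80 without it, and Cyp7b1 from 1.25 to 0.66. Between GKO and WT normal livers 0 of the 10 were called (limma), as were 0% of 13099 genes, and 0 were at an unadjusted p under 0.05 (3.96% of genes). There the 10 values lay between -0.22 for Cyp7b1 and 0.84 for Cyp7a1 (95% interval -0.03 to 1.71).

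DEN-treated non-tumours were set against untreated normal livers of the same genotype. In WT mice 0 of the 10 genes were called (limma), beside 0.00744% of 13440 genes, and 4 were at an unadjusted p under 0.05, beside 24.4% of all genes. They were Cyp7a1 (log2 fold change 2.04, adjusted p = 0.138), Cyp27a1 (0.66, adjusted p = 0.138), Slco1b2 (0.77, adjusted p = 0.203) and Cyp7b1 (-1.43, adjusted p = 0.199, limma). Cyp7b1 was at -0.84 without WT non-tumour 2, its lowest sample there, and at -2.07 without WT non-tumour 3. Cyp7a1 was at 1.41 without WT non-tumour 3. All 3 WT non-tumours were above all 3 WT normal livers for Cyp7a1, Cyp27a1 and Slco1b2. In GKO mice 0 of the 10 were called (limma), as were 0% of 13530 genes, and 1, Cyp27a1, was at an unadjusted p under 0.05 (5.2% of genes), with a log2 fold change of 0.79 (95% interval 0.03 to 1.54). Cyp7a1 was at 1.29 there (95% interval -0.18 to 2.77), with GKO non-tumour 2 below the normal livers, and at 2.15 without that sample (adjusted p = 0.0657, limma). The comparisons of non-tumours with tumours and with normal livers share the non-tumour samples.

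Other genes of the pathway were counted in fixed lists. Of 16 other synthesis and conjugation enzymes, 15 were tested in WT tumours against non-tumours, and 2 fell and 0 rose, beside 2.07% and 2.16% of all genes. They were Slc27a5, the bile acid CoA ligase that acts before Baat, at 179 ± 46.3 and 556 ± 114 TPM in WT tumours and non-tumours (log2 fold change -1.64, adjusted p = 0.0276, limma), and Scp2, the peroxisomal thiolase and sterol carrier, at 703 ± 204 and 1838 ± 226 TPM (-1.42, adjusted p = 0.0429, limma; SD, n = 3). The median of the 15 was -1.30. In GKO mice 1 of 15 fell, Cyp46a1, the cholesterol 24-hydroxylase best known from brain, from 5.55 ± 0.06 to 0.576 ± 0.385 TPM (-2.09, adjusted p = 0.00538, limma), 0 rose, beside 3.97% and 7.75% of all genes, and the median was -0.16. Cyp46a1 was lower in WT tumours as well, with a log2 fold change of -1.72 that did not pass (adjusted p = 0.268, limma). Slc27a5 was at 460 ± 216 TPM in GKO tumours (SD, n = 3), with a log2 fold change of -0.17 from GKO non-tumours. That of Scp2 was -0.84 (adjusted p = 0.0854, limma).

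Of 16 other transporters, 14 were tested, and 2 fell and 0 rose in WT tumours (2.07% and 2.16% of all genes). Both were again organic anion carriers: Slco1a4 fell by 3.32 on the log2 scale (adjusted p = 0.00722) and Slco2b1 by 2.89 (adjusted p = 0.0344, limma). In GKO tumours 1 of 14 fell, the efflux pump Abcg2, by 1.38 (adjusted p = 0.0179, limma), and 0 rose (3.97% and 7.75% of all genes). Each of these was also lower, without passing, in the other genotype. Abcg2 was at -1.22 in WT tumours (adjusted p = 0.268, limma). In GKO tumours Slco1a4 was at -1.40 (adjusted p = 0.188) and Slco2b1 at -1.70 (adjusted p = 0.111, limma). The medians were -0.80 in WT and -0.61 in GKO mice. One transporter, named after its values were seen, divided the WT tumours like Cyp7b1: Abcc4, a basolateral export pump, was at 33.0 and 31.0 TPM in WT tumours 1 and 2, at 0.603 TPM in WT tumour 3 and at no more than 4.03 TPM in the other samples.

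Of 20 receptors and regulators, 17 were tested. In WT tumours 0 were called (limma) and 4, all lower, were at an unadjusted p under 0.05, beside 19.9% of all genes. In GKO tumours 1 fell, beside 3.97% of all genes, Mafg, a repressor in the bile acid feedback, by 0.91 (adjusted p = 0.0409, limma), and 0 rose. Mafg was similarly lower in WT tumours, at -0.84, without passing the test (adjusted p = 0.086, limma). The medians of -0.17 and 0.28 lay near those of all genes. Nr1h4, the bile acid receptor, named after its values were seen, was at 29.6, 29.5 and 59.4 TPM in WT tumours, below the 140.2, 81.7 and 151 TPM of WT non-tumours, and did not pass the test (log2 fold change -1.66, adjusted p = 0.0642, limma). In GKO tumours Nr1h4 was at 76.7, 57.8 and 132 TPM, overlapping with the 101, 93.0 and 131 TPM of GKO non-tumours (log2 fold change -0.35, adjusted p = 0.495, limma). Nr1i3, a receptor of the same list, also named after its values were seen, had larger differences that did not pass. They were -2.47 in WT tumours (adjusted p = 0.0592) and -2.96 in GKO tumours (adjusted p = 0.0505, limma). Between GKO and WT tumours 0 of the tested genes of the 3 lists were called (limma), and 4 of 14 enzymes, 3 of 14 transporters and 1 of 17 regulators were at an unadjusted p under 0.05, beside 8.87% of all genes. The 4 enzymes and the regulator were higher in GKO tumours, and of the 3 transporters 1 was higher and 2 were lower. The interaction was called for 0 of the tested genes of the 3 lists (limma), where 0.0142% of all genes were called. Calls of list genes made in 1 genotype only are thus not shown to depend on the genotype.

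**Figure D4:**
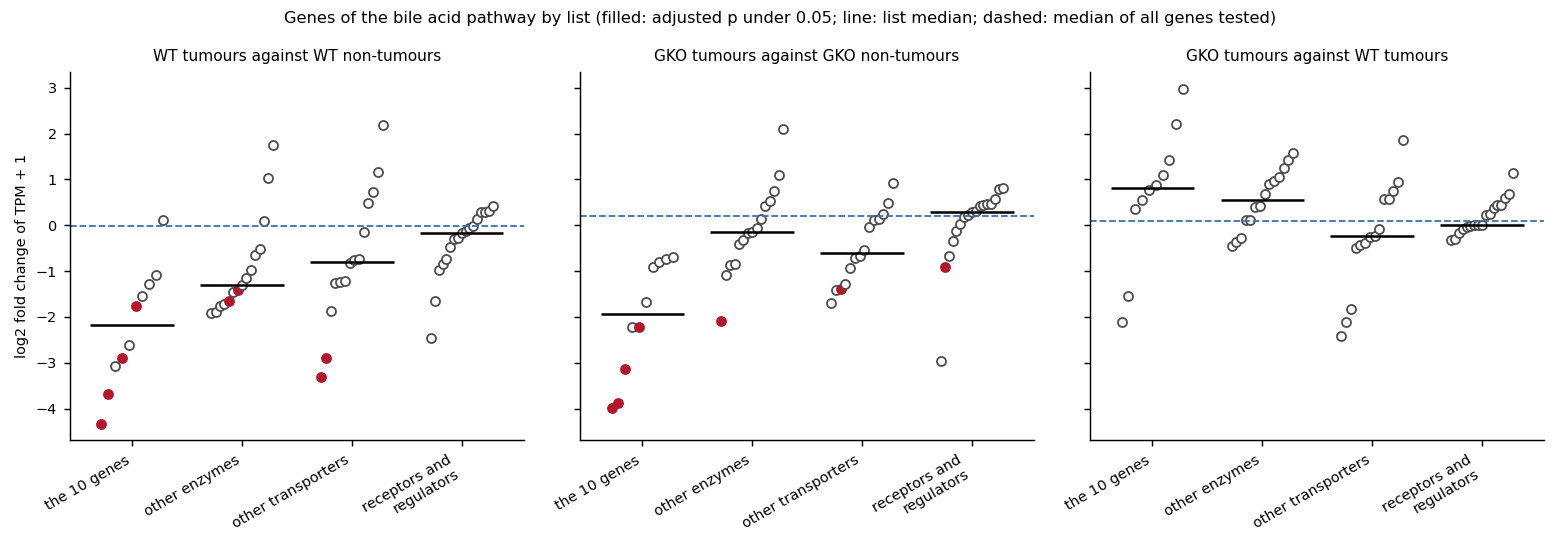
Log2 fold change of TPM + 1 of each tested gene (points) of the 10 genes and of the lists of other enzymes, other transporters and receptors and regulators; black lines are list medians, the dashed line is the median of all genes tested, and filled points passed an adjusted p under 0.05. The medians of the 10 genes, -2.19 and -1.95, are the lowest of the 4 in both comparisons with non-tumours, and that of the regulators is close to the dashed line.

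Beside these results, markers of other cell types and clock genes are given as measured, and their part in the results was not tested. The 8 cholangiocyte markers summed to between 76.1 and 147 TPM in WT tumours, 80.3 and 1030 TPM in GKO tumours and 37.4 and 86.6 TPM in non-tumours. These sums do not stand for each marker. Of the 6 tested, 2 were higher and 4 lower in WT tumours than in WT non-tumours (median log2 fold change -0.23). All 6 were higher in GKO tumours than in GKO non-tumours (median 0.91). Between GKO and WT tumours 4 were higher and 2 lower in GKO tumours (median 0.92). The 8 macrophage markers summed to between 144 and 437 TPM in tumours and 218 and 1060 TPM in non-tumours. The 10 fibroblast and stellate cell markers summed to between 54.5 and 193 TPM in tumours and 45.0 and 79.2 TPM in non-tumours, the 8 endothelial markers to between 82.8 and 118 TPM and 46.5 and 97.5 TPM, and the 8 lymphocyte markers to between 5.88 and 26.0 TPM and 7.14 and 34.1 TPM. Single markers were divided here too. Of the fibroblast and stellate cell markers, 6 were higher and 4 lower in WT tumours than in WT non-tumours, and 5 and 5 in GKO mice. For endothelial markers these counts were 7 and 1 in WT mice and 5 and 3 in GKO mice. For macrophage markers they were 0 and 8, and 3 and 5. For the 6 lymphocyte markers tested they were 2 and 4, and 0 and 6. In every list 0 of the markers were at 0 in all 3 samples of a group. Cyp7a1 and Nr0b2 are known to cycle over the day. Of 12 clock genes 0 were called between GKO and WT tumours (limma), but 9 were at an unadjusted p under 0.05 (8.87% of all genes), and the groups did not overlap for the same number, 7 higher and 2 lower in GKO tumours (14.7% of all genes). Between GKO and WT non-tumours 0 of the 12 were at an unadjusted p under 0.05 (5.8% of genes), with a median log2 fold change of -0.008. Between the normal livers 2 of the 10 tested were at that level, both higher in GKO mice (3.96% of genes). For the interaction 3 of the 12 were at that level (10.5% of genes), and 0 were called (limma). Dbp, a clock output gene named after its values were seen, was at 193, 120.4 and 256 TPM in GKO tumours and at 42.4, 42.4 and 87.8 TPM in WT tumours.

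Across all 18 samples, the mean standardised log2 value of the 10 genes was between -1.23 and -1.05 in WT tumours, between -0.71 and -0.64 in GKO tumours and between 0.20 and 0.90 in the other 12 samples. Of the 10 genes, Cyp27a1 (Pearson's r 0.956) and Slco1b2 (0.941) followed this mean most closely and Nr0b2 (0.182) least, each being part of the mean. The genes outside the set whose pattern was most like it, over 13914 genes and 18 samples, were Cpsf4l (0.954), Npr2 (0.953), Gas1 (0.950), Gm37881 (0.944) and Sult2a8 (0.941). By Spearman's rho, 1 of these 5, Cpsf4l, was among the first 5. These correlations mainly follow the difference between the 6 tumours and the other samples, and they are given as a description.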

How the data were processed

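RNA-seq values of 18 samples in 6 groups of 3 were used, grouped by the genotype and tissue in the labels. The authors aligned reads with STAR 2.7.3a and counted them with featureCounts 2.0.0, and they deposited TPM, with mm10 as the build. Of 54838 genes, 54809 matched GENCODE release M21. TPM times exonic length was whole, within 0.02, for 97.95% to 98.67% of values up to 30 reads; voom on these reads was run as an alternative. There were 0 columns without a sample.

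Each comparison used its own samples, log2(TPM + 1) and genes averaging 0.5 TPM or more. The test was limma (3.58.1, R 4.3.3; lmFit, then eBayes with a mean trend), adjusted by Benjamini-Hochberg over every gene tested. Fold changes on this scale understate those of low genes. A call means an adjusted p under 0.05. The procedure was tested on simulated data. The genes and lists were chosen with earlier results of these data known. The text names all 10 genes, of each list up to 4 genes with an adjusted p under 0.05 per comparison, and the 5 genes most like the set. Abcc4, Nr1h4, Nr1i3 and Dbp are named besides, chosen after their values were seen. Same-numbered samples deviated together weakly between GKO and WT tumours (r of 0.101, 0.12 and 0.197 over genes). The same held between GKO tumours and GKO non-tumours (0.124, 0.069 and 0.041). In the other comparisons the r had both signs, up to 0.249 for replicate 3 of WT tumours and non-tumours. Tumours of different genotypes cannot share a mouse, so this check does not show pairing by mouse. Depth gave at least 20 reads for each of the 10 genes in every sample. Python 3.11.15 with pandas 2.3.3 and matplotlib 3.10.9 did the rest.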

Additional observations from a re-analysis of the deposited data

How the results depend on the processing

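The alternatives were another pseudocount (0.1 TPM), no filter or one at 5 TPM, centring on the median, quantile normalization, a joint fit of the 18 samples, eBayes with no trend, a replicate block, voom on recovered reads and leaving out each sample. Of the 50 gene results, 7 took the other sign in some alternative, each with 1 sample left out and each uncalled. Leaving out 1 sample gave 16 losses and 5 gains of a call in 336 values, and the other settings 5 and 2 in 475. The number of the 10 genes called in WT tumours against non-tumours was 4, ranged from 1 to 6 with 1 sample left out, was 1 with WT tumours 1 and 2 averaged (chosen after seeing the data) and 4 or 5 otherwise. In GKO mice it was 4, ranged from 0 to 5 with 1 sample left out, was 2 without the filter, where Cyp7b1 (adjusted p = 0.0581) and Slco1a1 (0.0629, limma) were lost, and 4 or 5 otherwise. The cause of these changes was not tested. Between GKO and WT tumours it ranged from 0 to 1 with 1 sample left out. In the other 5 comparisons it was 0 in every alternative.

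With 1 sample left out, the log2 fold changes that took the other sign ranged between GKO and WT tumours from -0.40 to 1.26 for Slco1a1 and from -0.0699 to 0.706 for Abcb11, in WT tumours against non-tumours from -1.94 to 0.53 for Cyp7b1 and from -0.0732 to 0.301 for Nr0b2, and for Cyp8b1 from -0.0776 to 3.17 between the non-tumours and from -2.76 to 0.488 in WT non-tumours against normal livers, and for Cyp7b1 from -0.448 to 0.00825 between the normal livers. The replicate block left the number of genes called at 4 in both comparisons of tumours with non-tumours and at 0 in the other 6. It groups samples by replicate number, and which samples share a mouse is not given, so it does not test pairing by mouse. Centring on the median or quantile normalization moved the median log2 fold change of all genes by -0.38 (WT non-tumours against normal livers) to 0.17 (between the non-tumours), and no call of the 10 genes changed with centring or quantile normalization.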
